A study of Mus musculus with 6 samples.

Results

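One early-passage library of the mouse glioma line GL261 was compared with a pair of later-passage libraries of the same line, gene by gene. The comparison used 3 of the 6 libraries of the study: GL261 at passage 17 against GL261 at passages 33 and 34. Of the 12151 genes in the deposited table, 10179 had a mean of at least 5 CPM (a read count relative to library size) over these 3 libraries and were kept, and 1972 lay below. All 3 GL261 libraries came from unmodified cells, labelled as glioma differentiated cells, that were harvested in log phase from DMEM with fetal bovine serum. No treatment is named in their labels. The passage field of the third library reads 33, while its title gives passage 34. The study's other 3 libraries are of mNS, glioma neurospheres grown without serum in medium with EGF, basic FGF and heparin, at passages 72, 77 and 85, and their levels are given beside those of GL261 only where stated. The labels do not say whether the 3 GL261 libraries were separate cultures, so passage and any other difference between these cultures cannot be told apart. With 1 early library there is no replicate check and no test.

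GL261 is a transplantable line from a chemically induced mouse glioma that is widely used in immunocompetent mice. Cells kept in serum for many passages are a population under continuous selection for growth on plastic, and both their expressed programs and their chromosomes can change with time in culture. Among the programs that differ between cultures, the amino acid response, led by the transcription factor ATF4, raises transporters and enzymes when amino acids are scarce. The interferon response raises antiviral genes through the STAT and IRF factors, and mitotic genes are expressed late in the cell cycle.

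The size of a difference is given as log2(CPM + 1) at passage 17 minus the nearer of the later values, for genes whose passage 17 value lay outside both. Passage 17 lay above both later libraries for 3889 genes (38.2%), below both for 4236 (41.6%), and between them or level with one for 2054. It was at least 2-fold above the nearer later library for 32 genes (0.314%) and at least 2-fold below it for 38 (0.373%), a difference of 1 on this scale, on which all fold lines are drawn. A smaller line of 1.5-fold was passed by 131 genes (1.29%) upward and 155 (1.52%) downward. Between the later libraries themselves, 28 genes (0.275%) differed 1.5-fold or more in either direction, and 1 gene, Cbx3, a chromatin protein of the HP1 family at 10.5 CPM in passage 33 and 4.70 CPM in passage 34, differed 2-fold. Pairwise, 429 genes were 1.5-fold apart between passages 17 and 33 and 458 between passages 17 and 34. The SD over genes was 0.27 for passage 17 minus the mean of the later libraries and 0.15 for passage 34 minus passage 33. The medians over all kept genes were -0.01 and -0.0025, and since the authors' scaling by TMM factors holds the typical gene level between libraries, a shift shared by most genes would not be seen. Between 13825692 and 14225175 reads per library fell in listed genes, 1 read was worth between 0.0722 and 0.0747 CPM, and the minimum of 5 CPM was about 67 reads at passage 17.

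The largest differences included genes of surface, matrix and adhesion proteins. Hmcn1, which encodes the extracellular matrix protein hemicentin (chromosome 1, 150562500 to 150993652 in GRCm38), stood at 32.9 CPM at passage 17, 1.20 CPM at passage 33 and 1.66 CPM at passage 34. Its reads were 441, 16 and 23, which gives a ratio of 22.9 (95% counting interval 16.5 to 32.7), and its nearer difference of 3.67 was the largest of all kept genes. Sdpr, a caveola protein, stood at 56.4, 8.22 and 11.1 CPM (2.25). Serpine2, a secreted inhibitor of thrombin and plasminogen activators, stood at 22.6, 4.86 and 3.54 CPM (2.01), and Cass4, a focal adhesion adaptor, at 15.9, 2.99 and 2.60 CPM (2.08). These 4 genes were the ones with a difference above 2 on the log2(CPM + 1) scale. Ly6c1 and Ly6a, neighbouring genes for GPI-anchored surface antigens of the Ly6 family, were among the more abundant genes past 2-fold: Ly6a stood at 512, 186 and 231 CPM (1.14) and Ly6c1 at 207, 62.8 and 70.0 CPM (1.55). Alcam, an adhesion molecule of the immunoglobulin family, stood at 31.6, 8.0 and 9.61 CPM (1.62), and the protocadherin Pcdh17 at 21.5, 5.90 and 5.49 CPM (1.70). Scara5, a scavenger receptor that takes up ferritin, was at 28.7, 6.58 and 9.90 CPM (1.45), and its later values differed by 0.52, the widest gap among the 32 genes.

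In the other direction Arl4c, a small GTPase of the ARF family, was the one gene with a difference below -2 on the log2(CPM + 1) scale. It stood at 2.83 CPM at passage 17, 15.7 CPM at passage 33 and 27.2 CPM at passage 34 (-2.12), so its later libraries also differed between themselves, by 0.76. Ncam1, the neural cell adhesion molecule, stood at 6.56, 26.1 and 28.2 CPM (-1.84), and Reln, the secreted glycoprotein reelin, at 11.0, 38.9 and 45.7 CPM (-1.74). Both were about as far from passage 17 in either later library. Tenm4, a teneurin that joins cell surfaces, stood at 22.4, 58.8 and 69.9 CPM (-1.35), and Olfm1, a secreted olfactomedin, at 13.6, 34.7 and 41.3 CPM (-1.29). Wif1, a secreted inhibitor of Wnt ligands, had 22, 100 and 115 reads (1.64, 7.47 and 8.31 CPM, -1.68). Its 22 reads were the lowest number at passage 17 among the 70 genes past 2-fold, and the ratio of later to early values was 4.82 (interval 3.10 to 7.85). The genes just inside the 2-fold line were Adamts20 (1.02) and Serpinb8 (-1.01), and those just outside it were Slitrk6 (0.99) and Lrrtm3 (-0.998).

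**Figure D1:**
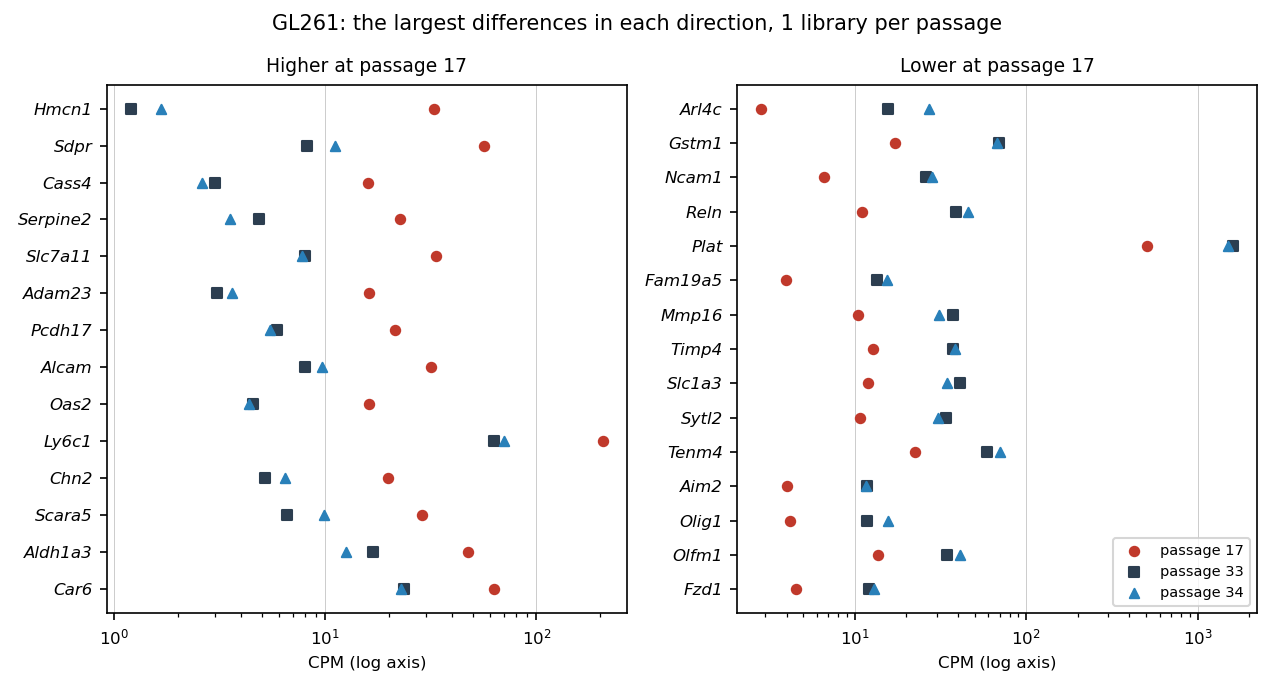
Level in CPM on a log axis of the 15 genes with the largest differences in each direction whose higher side reached 10 CPM (1 of them is not shown), with 1 marker per library for GL261 at passages 17, 33 and 34. The markers of passages 33 and 34 lie close together in most rows, and the widest gap between them is that of Arl4c, at 15.7 and 27.2 CPM.

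Genes of the amino acid response and of serine and glycine synthesis stood higher at passage 17. Of the 40 kept genes in this list, 35 were above both later libraries and 4 below both, against 38.2% and 41.6% of all kept genes, and 11 passed 1.5-fold upward while none passed it downward. The list's median of passage 17 minus the mean of the later libraries was 0.35, the highest of the 43 lists with a kept gene. Its median for passage 34 minus passage 33 was 0.03. The lists and name patterns here and below were chosen with earlier results of these data known, so their counts and ranks are a description. The shares of all kept genes above both and below both, 38.2% and 41.6%, apply beside each of their counts. The list covers transporters, enzymes and regulators. Among transporters, Slc7a11, the cystine and glutamate exchanger, stood at 33.3 CPM at passage 17, 8.0 CPM at passage 33 and 7.73 CPM at passage 34 (1.93), a ratio of 4.24 (interval 3.59 to 5.01). The large neutral amino acid transporter Slc7a5 stood at 207, 157 and 167 CPM (0.31) and its partner chain Slc3a2 at 233, 177 and 185 CPM (0.33), above both later libraries but short of 1.5-fold.

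Among the enzymes Cth, which makes cysteine from cystathionine, stood at 30.2, 11.1 and 11.1 CPM (1.36), and Gpt2, the mitochondrial alanine transaminase, at 216, 109 and 118 CPM (0.87). Asns, asparagine synthetase, stood at 428, 282 and 277 CPM (0.60). Aldh1l2, a mitochondrial folate enzyme, stood at 365, 219 and 215 CPM (0.73). The serine pathway was uneven: Phgdh, its first enzyme, stood at 132, 102 and 109 CPM (0.28), while Psat1, its second, stood at 737, 773 and 741 CPM and differed by -0.01. Mthfd1, a cytosolic folate enzyme, was the lowest of the list at 193, 228 and 238 CPM (-0.24). Among regulators Nupr1, a small stress-induced nuclear protein, stood at 15.1, 6.13 and 6.57 CPM (1.08), the pseudokinase Trib3 at 33.5, 17.7 and 21.3 CPM (0.63), and Ddit3, the stress factor CHOP, at 34.5, 19.6 and 21.7 CPM (0.64). The transcript of Atf4, whose protein is mainly controlled by translation, stood at 747, 653 and 652 CPM (0.19). The unfolded protein response and heat shock list, which shares the factor ATF4 with this program, was balanced, with 11 of 30 kept genes above both later libraries, 11 below both and none past 1.5-fold.

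Promoter sequences of a pair of these genes are shown because most members of the list differed in one direction and the ATF4 family is known to bind a short composite element. RefSeq promoters (GRCm38.p6, 250 bases before to 50 after the start) were matched for 35 of the 40 kept list genes, and the letters TGATGNAA were searched on both strands. They were present in 10 of those 35 (28.6%), in 2.61% of the 8203 kept genes with a promoter and in 3.97% of all 32851 promoters. Slc7a11 holds 2 matches, 66 and 47 bases before its start on opposite strands, and Nupr1 holds 1, 110 bases before its start. Each sequence is written 5′ to 3′ on the gene's strand, with the matches in capitals. A match describes the letters only and is no evidence of binding. The list was made of genes of the ATF4-led response, so its high share of this element could follow from that choice alone. The share therefore says nothing about the difference between passages.

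Slc7a11, chr3:50443564-50443863, minus strand: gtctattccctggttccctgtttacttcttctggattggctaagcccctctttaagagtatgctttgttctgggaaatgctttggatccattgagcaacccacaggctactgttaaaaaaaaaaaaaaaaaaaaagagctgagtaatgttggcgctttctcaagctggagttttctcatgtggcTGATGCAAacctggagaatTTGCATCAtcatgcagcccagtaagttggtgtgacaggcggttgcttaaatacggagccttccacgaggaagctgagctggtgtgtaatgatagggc
Nupr1, chr7:126625421-126625720, minus strand: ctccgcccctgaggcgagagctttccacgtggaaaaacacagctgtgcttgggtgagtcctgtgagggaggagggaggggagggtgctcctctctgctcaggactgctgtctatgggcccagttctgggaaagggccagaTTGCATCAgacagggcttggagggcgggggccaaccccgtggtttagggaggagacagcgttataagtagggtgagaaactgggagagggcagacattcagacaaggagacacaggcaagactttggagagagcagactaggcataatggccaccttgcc

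Interferon-response genes were also higher at passage 17, with smaller differences spread over most of the list. Of 47 kept genes, 40 were above both later libraries and 3 below both, 5 passed 1.5-fold upward and none downward, and the median of 0.29 was the second highest of the 43 lists (0.03 for passage 34 minus passage 33). Oas2, a sensor enzyme that makes oligoadenylates from double-stranded RNA, stood at 16.0 CPM at passage 17, 4.56 CPM at passage 33 and 4.33 CPM at passage 34 (1.61). Ifi44, a cytoplasmic interferon-induced protein, stood at 21.1, 5.98 and 8.96 CPM (1.15), with the later libraries 0.51 apart. Bst2, the membrane tether of enveloped virus particles, stood at 323, 189 and 188 CPM (0.77), and Isg15, the ubiquitin-like modifier, at 95.3, 61.9 and 61.6 CPM (0.62). Among the regulators, the amplifying factor Irf7 differed less than these products and stood at 38.4, 32.9 and 33.5 CPM (0.19). Irf9, a DNA-binding factor of the interferon response, went the other way at 104, 125 and 132 CPM (-0.27). Members of the Oas, Ifi and Gbp families are near copies of one another, so single members are uncertain where reads are shared.

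The major histocompatibility class I genes, which interferon also raises, differed between the later libraries too. Of 6 kept genes 4 were above both later libraries and none below both. H2-K1, a classical antigen-presenting molecule, stood at 94.9 CPM at passage 17, 62.5 CPM at passage 33 and 87.6 CPM at passage 34, and H2-D1 at 44.0, 25.6 and 35.3 CPM. In both genes passage 34 lay nearer to passage 17 than to passage 33. Over the 6 genes the median of passage 34 minus passage 33 was 0.46, wider than the 0.34 of passage 17 minus the mean of the later libraries. These genes are near copies whose reads may be shared.

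The interferon-stimulated response element is the sequence through which STAT and IRF complexes act, and a pair of promoters is shown for the same reason as above. The letters GAAANNGAAA, searched on both strands of the RefSeq promoters, were present in 19 of the 36 interferon list genes that matched (52.8%), in 3.67% of the 8203 kept genes and in 3.44% of all promoters. Overlapping matches in capitals form a single run in Isg15, with starts 78, 72 and 66 bases before the transcription start, and in Bst2, with starts 130 and 124 bases before it. Ifi44 (1.15) holds no match, while Ifit1 (0.13) holds 2, and a link to the differences was not tested. The interferon list was also chosen by pathway, so its high share could follow from that choice and says nothing about passage.

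Isg15, chr4:156200769-156201068, minus strand: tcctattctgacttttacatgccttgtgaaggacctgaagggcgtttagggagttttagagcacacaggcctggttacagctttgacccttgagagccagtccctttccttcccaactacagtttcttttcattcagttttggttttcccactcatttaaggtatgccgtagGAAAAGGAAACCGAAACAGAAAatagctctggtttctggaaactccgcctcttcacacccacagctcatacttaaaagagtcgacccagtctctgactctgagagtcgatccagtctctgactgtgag
Bst2, chr8:71537423-71537722, minus strand: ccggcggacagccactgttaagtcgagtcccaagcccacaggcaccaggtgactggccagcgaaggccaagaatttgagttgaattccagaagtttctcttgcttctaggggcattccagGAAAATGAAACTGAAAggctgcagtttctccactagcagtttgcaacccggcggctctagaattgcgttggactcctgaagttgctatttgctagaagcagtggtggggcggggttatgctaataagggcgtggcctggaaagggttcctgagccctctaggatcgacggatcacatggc

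**Figure D2:**
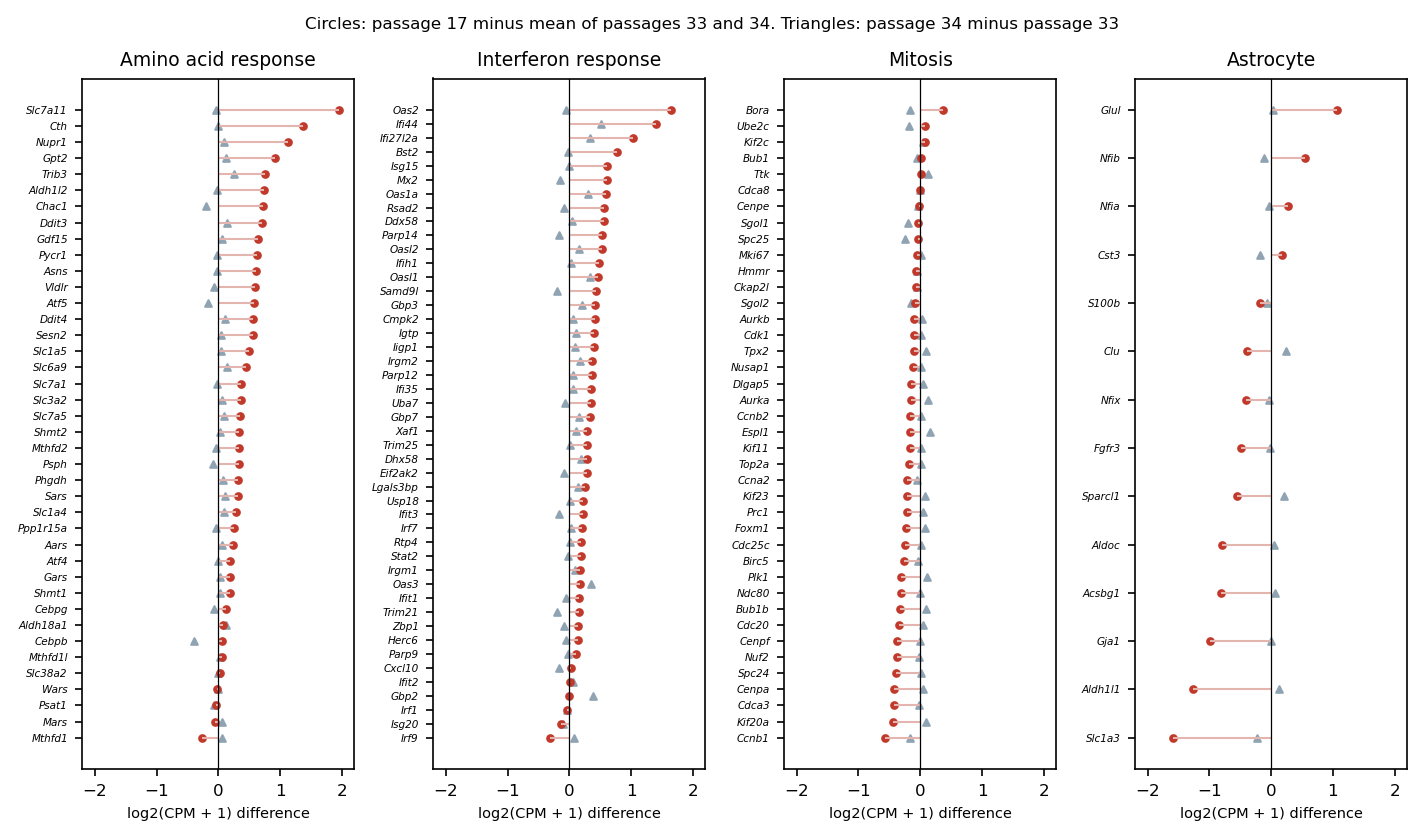
Difference in log2(CPM + 1) on the horizontal axis for the kept genes of 4 lists (1 gene is not shown), with circles for passage 17 minus the mean of passages 33 and 34 and triangles for passage 34 minus passage 33. Circles lie to the right of 0 for most amino acid and interferon genes and to the left for most mitotic genes, while the triangles stay nearer to 0.

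Mitotic genes were mostly lower at passage 17, by small amounts that varied between genes. Of the 40 kept genes 33 were below both later libraries and 2 above both (Bora, an activator of Aurora A, and Kif2c), none passed 1.5-fold in either direction, and the median was -0.16 against 0.01 for passage 34 minus passage 33. Ccnb1, the mitotic cyclin B1, stood at 88.7 CPM at passage 17, 139 CPM at passage 33 and 124 CPM at passage 34 (-0.48). Cdca3, a trigger of mitotic entry, stood at 179, 243 and 240.1 CPM (-0.42), and Cenpa, the histone of the centromere, at 186, 245 and 252 CPM (-0.39). Cdc20, the activator of the anaphase-promoting complex, stood at 406, 506 and 524 CPM (-0.32). Mki67, the proliferation marker, was nearly level at 1520.2, 1567 and 1588 CPM (-0.04). Genes of G1/S and replication moved less, with 13 of 41 above both later libraries, 23 below both and a median of -0.05.

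The promoters of many mitotic genes carry a cell cycle homology region, bound by the DREAM complex and by B-MYB with FOXM1. The core letters TTTGAA were present on either strand in 23 of the 31 matched mitotic genes (74.2%), against 14.3% of the 8203 kept genes and 17.9% of all promoters, and CCAAT boxes in 26 of 31 (83.9%) against 44.3%. The promoters of Cdca3 and Cenpa show the core in capitals just after the start, at bases 30 and 16. Ccnb1 (-0.48) holds no core, while Kif2c, above both later libraries, holds 1, and a link to the differences was not tested. Because the list was chosen as mitotic genes, its high shares could follow from that choice and say nothing about passage.

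Cdca3, chr6:124829926-124830225, plus strand: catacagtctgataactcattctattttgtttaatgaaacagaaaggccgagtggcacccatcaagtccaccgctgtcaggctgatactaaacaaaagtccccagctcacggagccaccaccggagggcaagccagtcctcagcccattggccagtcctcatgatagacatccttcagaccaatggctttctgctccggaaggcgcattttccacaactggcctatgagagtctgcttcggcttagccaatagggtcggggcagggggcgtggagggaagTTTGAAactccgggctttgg
Cenpa, chr5:30666636-30666935, plus strand: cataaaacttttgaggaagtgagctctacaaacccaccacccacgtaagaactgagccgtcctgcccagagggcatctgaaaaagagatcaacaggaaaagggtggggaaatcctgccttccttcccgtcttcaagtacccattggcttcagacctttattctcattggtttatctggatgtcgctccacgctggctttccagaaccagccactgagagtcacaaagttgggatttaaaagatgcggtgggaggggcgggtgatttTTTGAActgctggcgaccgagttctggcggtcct

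Targets of p53 and cell cycle inhibitors leaned the other way from the mitotic genes. Of 23 kept genes 17 were above both later libraries and 5 below both, with a median of 0.20 and 1 gene past 1.5-fold. That gene was Gadd45a, a stress sensor of the DNA damage response, at 28.1, 17.7 and 16.8 CPM (0.64). Cdkn1a, the inhibitor p21, stood at 61.4 CPM at passage 17, 44.7 CPM at passage 33 and 45.4 CPM at passage 34 (0.43). Trp53 itself stood at 57.6, 52.9 and 54.7 CPM (0.07), and Cdkn2a at 92.1, 87.2 and 87.5 CPM (0.07), so both were present in all 3 libraries at similar levels. Cdkn2c, the inhibitor p18, was lower at 22.4, 33.2 and 32.6 CPM (-0.52). Sesn2, a stress-induced sestrin at 57.3, 38.0 and 39.2 CPM (0.54), belongs to this list and to the amino acid response. Histone genes leaned upward as a family, with 42 of 58 kept genes above both later libraries, 10 below both, none past 1.5-fold and a median of 0.15. The replication-dependent gene Hist1h2bc stood at 120.2, 85.4 and 74.2 CPM (0.49), while the replacement variant H2afv stood lower at 69.6, 96.6 and 95.9 CPM (-0.46). Histone genes are near copies, so single members are uncertain. Transcripts of the replication-dependent genes mostly lack a poly(A) tail, and the libraries were made from total RNA depleted of ribosomal RNA.

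Astrocyte genes had the lowest median among the lists with more than 1 kept gene, at -0.45 against -0.01 for passage 34 minus passage 33. Of 14 kept genes, 10 were below both later libraries and 4 above both, with 5 past 1.5-fold downward and 1 upward. In bulk RNA, fewer cells of a type and less RNA per cell cannot be told apart. Slc1a3, the glial glutamate transporter GLAST, stood at 11.9 CPM at passage 17, 40.8 CPM at passage 33 and 34.7 CPM at passage 34 (-1.47), a later to early ratio of 3.18 (interval 2.69 to 3.78). Aldh1l1, an astrocyte folate enzyme, stood at 3.73, 9.94 and 10.9 CPM (-1.21), and Gja1, the gap junction protein connexin 43, at 108, 216 and 216 CPM (-0.99). The glycolytic isoform Aldoc was at 18, 31.7 and 32.8 CPM (-0.78). Gfap, the defining filament of astrocytes, stood at 1.49, 3.81 and 5.06 CPM, below the minimum for the comparison but lowest at passage 17 as well. Glul, glutamine synthetase, ran against the list at 235, 111 and 113 CPM (1.05), as did the nuclear factor Nfib at 70.8, 50.1 and 45.9 CPM (0.49).

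Neural progenitor genes were divided. Of 15 kept genes 9 (60%) were below both later libraries and 4 (26.7%) above both, against 41.6% and 38.2% of all kept genes. The bHLH factors of the oligodendrocyte lineage were low in all 3 libraries and lowest at passage 17: Olig1 at 4.17, 11.7 and 15.7 CPM (-1.30) and Olig2 at 5.29, 9.19 and 11.1 CPM (-0.70). Sox2, the stem cell factor, stood at 134, 211 and 197 CPM (-0.55), and the surface sialoglycoprotein Cd24a at 37.8, 92.8 and 82.4 CPM (-1.10). Nes, the intermediate filament nestin, was higher at passage 17 with 1715, 1382 and 1458 CPM (0.23), and Id3, a dominant-negative bHLH factor, stood at 442, 377 and 325 CPM (0.23). Ly6a, given above (1.14), is also in this list and was its 1 member past 2-fold upward. The progenitor marker Fabp7, below the minimum for the comparison, was highest at passage 17 at 5.52, 2.69 and 1.52 CPM. Genes of the oligodendrocyte and Schwann lineage had no common direction, with 7 of 15 kept genes above both and 7 below both. Mbp, myelin basic protein, stood at 756, 799 and 734 CPM and Sox10, the lineage factor, at 404, 379 and 394 CPM (0.04). Bcas1, a marker of early myelinating cells, stood at 134, 216 and 227 CPM (-0.68).

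Within the matrix, one set of collagens was higher early and another lower. Of 36 kept matrix and basement membrane genes 15 (41.7%) were above both later libraries and 20 (55.6%) below both. The shares of all kept genes were 38.2% and 41.6%. In this list 2 genes passed 1.5-fold upward and 6 downward, and the median was -0.14. The name pattern for collagens held 20 kept genes, 6 above both and 13 below both. Col3a1, a fibrillar collagen of connective tissue, stood at 123 CPM at passage 17, 277 CPM at passage 33 and 291 CPM at passage 34 (-1.16), and Col4a5, a basement membrane chain, at 114, 228 and 239 CPM (-0.99). The microfibrillar chain Col6a2 stood at 74.3, 123 and 161 CPM (-0.72). On the other side Col18a1, the parent of endostatin, stood at 353, 174 and 224 CPM (0.65), the fibrillar chain Col5a3 at 226, 122 and 136 CPM (0.73), and Col28a1 at 12.7, 4.19 and 5.20 CPM (1.15). Among matricellular proteins, Thbs1, an activator of latent TGF-beta, stood at 157, 355 and 365 CPM (-1.17). Of 6 kept laminins 4 were above both later libraries, against 38.2% of all kept genes, and none passed 1.5-fold. Lamb1 stood at 975, 773 and 795 CPM (0.29).

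Proteases and their inhibitors held some of the most abundant genes past 2-fold. Plat, the tissue plasminogen activator, stood at 507 CPM at passage 17, 1616 CPM at passage 33 and 1494 CPM at passage 34 (-1.56), and its inhibitor Serpine2, given above, was higher where Plat was lower. Timp3, a matrix-bound metalloprotease inhibitor, stood at 1623, 752 and 752 CPM (1.11), while its relative Timp4 stood at 12.7, 37.4 and 38.4 CPM (-1.48). Mmp16, a membrane-bound metalloprotease, stood at 10.4, 37.1 and 31.1 CPM (-1.49), and Reck, a membrane-anchored inhibitor, at 6.63, 17.3 and 13.4 CPM (-0.92). The list of 28 kept genes was balanced in direction, with 12 above both and 13 below both, but 4 passed 1.5-fold upward and 5 downward.

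Genes of secreted growth factors were lower at passage 17 more often than higher. Of 15 kept growth factor and cytokine ligands, 10 (66.7%) were below both later libraries and 4 (26.7%) above both, with a median of -0.22. The shares of all kept genes were 41.6% and 38.2%. Angpt2, an antagonist ligand of the vascular receptor TIE2, stood at 65.1, 135 and 135 CPM (-1.04), and Csf1, the macrophage growth factor, at 27.1, 37.9 and 43.1 CPM (-0.47). Vegfa, the endothelial growth factor, stood at 36.8, 31.2 and 30.6 CPM (0.23). The Wnt receptor Fzd1 stood at 4.55, 12.1 and 12.9 CPM (-1.24) and was lower together with Wif1. Ptch1, the Hedgehog receptor and itself a target of the pathway, stood at 50.2, 100.2 and 115 CPM (-0.98), and Il33, a nuclear alarmin cytokine, at 7.68, 15.7 and 18.3 CPM (-0.94).

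Glutathione transferases, which conjugate glutathione to electrophiles, went both ways. Among 15 kept genes 5 (33.3%) were above both later libraries and 8 (53.3%) below both, against 38.2% and 41.6% of all kept genes. Gstm1 stood at 17.1 CPM at passage 17, 69.6 CPM at passage 33 and 67.7 CPM at passage 34 (-1.93), and its neighbours on chromosome 3 were lower too: Gstm7 at 2.39, 8.82 and 9.54 CPM (-1.54), Gstm4 at 5.59, 9.49 and 9.68 CPM (-0.67) and Gstm6 at 4.32, 6.65 and 7.44 CPM (-0.52). The mu-class genes lie in a cluster of near copies, so the split of reads between them is uncertain, and Gstm5 was nearly level at 25.6, 25.4 and 24.8 CPM. The membrane-bound class was divided, with Mgst2 at 2.53, 6.50 and 7.66 CPM (-1.09) and Mgst1 at 18.3, 8.82 and 8.16 CPM (0.97). Nqo1, a quinone reductase and a standard NRF2 target, stood at 32.1, 56.3 and 55.0 CPM (-0.76), in the direction opposite to Slc7a11, which NRF2 also drives. Over the 29 kept antioxidant and NRF2 genes, 14 were above both and 12 below both.

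Cholesterol synthesis and serum-response genes leaned upward by small amounts. Of 27 kept cholesterol genes 17 were above both later libraries and 9 below both, with a median of 0.15 and none past 1.5-fold. Mvd, a mevalonate pathway enzyme, stood at 16.9, 11.7 and 11.7 CPM (0.50). Of 31 serum-response, actin and YAP genes 21 were above both and 8 below both, with a median of 0.12 and none past 1.5-fold upward. The 1 member past 1.5-fold went downward and was also past 2-fold: Thbs1, given above (-1.17). Cytosolic ribosomal protein genes were above both later libraries in 40 of 73 and below both in 11, with a median of 0.06. For comparison with these counts, 38.2% of all kept genes were above both and 41.6% below both. Hypoxia, lysosome, DNA repair, MYC and chromatin lists had medians between 0.01 and 0.05 and no member past 1.5-fold.

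**Figure D3:**
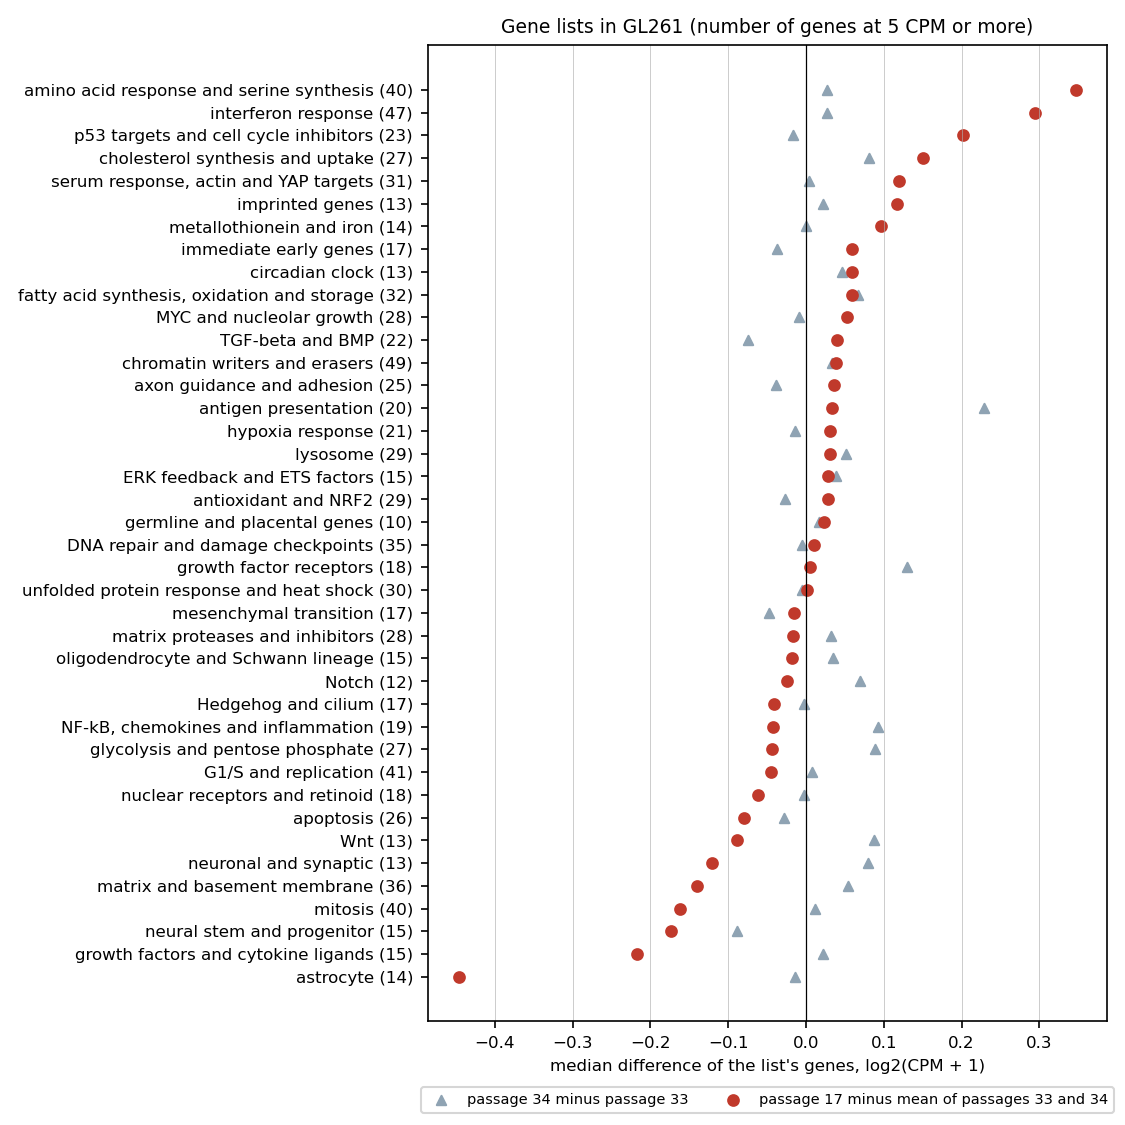
Median difference in log2(CPM + 1) for each gene list with at least 8 kept genes, with circles for passage 17 minus the mean of passages 33 and 34 and triangles for passage 34 minus passage 33. Circles run from -0.45 for astrocyte genes to 0.35 for amino acid response genes, and the triangle farthest from 0 is that of antigen presentation at 0.23.

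Markers of other cell types that a culture could hold were checked. The fixed markers of T cells (3 genes), endothelium (4) and red cells (2) were not among the listed genes, and 2 of 7 microglial markers were listed, Csf1r and Cd68, with a summed level of 5.44 CPM at passage 17, 4.41 CPM at passage 33 and 4.05 CPM at passage 34. Of 7 pericyte and fibroblast markers 3 were listed, and their sum of 259, 396 and 424 CPM moved with Col3a1, while Col1a1 stood at 134, 116 and 130.4 CPM. Of 4 neuronal markers 2 were listed, with sums of 248, 224 and 232 CPM, nearly all from the tubulin gene Tubb3. The wider microglia and macrophage list had 1 kept gene, Lyz2, at 3.50, 5.76 and 6.65 CPM (-0.58). The wider endothelial list had 2, Flt1 at 42.5, 24.7 and 26.2 CPM (0.68) and Egfl7 at 4.62, 6.13 and 7.08 CPM (-0.34). The part of such markers in the results above was not tested. As a check for neurosphere RNA, 12 genes were taken that averaged at least 50 CPM in mNS and at most 0.3 CPM in the later GL261 libraries, and their sum was 2.46, 1.72 and 1.59 CPM in GL261 against 939 to 1219 CPM in mNS. Some of the genes higher at passage 17 were higher still in mNS, with means of 138 CPM for Slc7a11 and 147 CPM for Pcdh17, and others were nearly absent there, with 0.823 CPM for Ly6a and 0.225 CPM for Adam23.

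Part of the differences followed position in the genome. In running windows of 50 neighbouring kept genes, the median of passage 34 minus passage 33 never lay further than 0.12 from 0 in 9160 windows, and that value was used as the line. The median of passage 17 minus the mean of the later libraries was above the line in 507 windows and below it in 894, with extremes of 0.31 and -0.47. Stretches of at least 100 genes past the line were found on chromosomes 4, 5, 12, 13, 14 and 18 and together held 1672 genes (16.5% of kept genes with a position). DNA copy number is not analysed here.

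**Figure D4:**
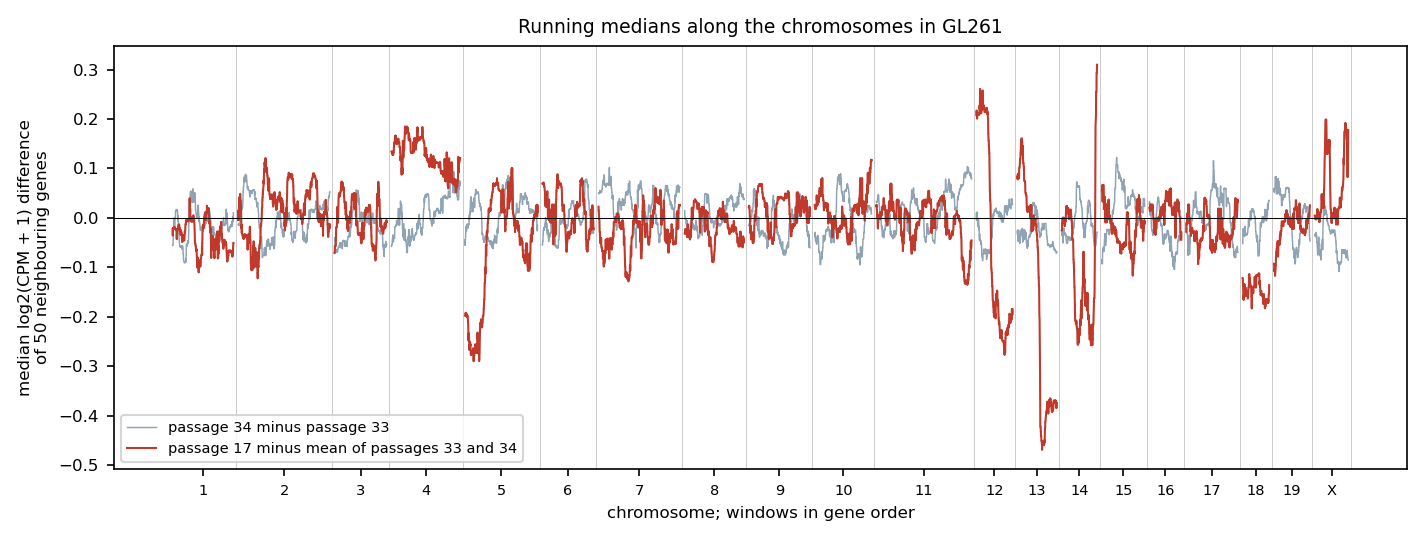
Running median of the difference in log2(CPM + 1) over 50 neighbouring kept genes, ordered along chromosomes 1 to 19 and X, in red for passage 17 minus the mean of passages 33 and 34 and in grey for passage 34 minus passage 33. The red line leaves the range of the grey line over long stretches, and reaches -0.47 on chromosome 13, where the grey line stays near 0.

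The most extreme stretch was the distal part of chromosome 13, from Grk6 to Zfp131 (55445072 to 119791477). Of its 202 genes, 169 (83.7%) were below both later libraries and 17 above both, the median was -0.37, which is 1.29-fold lower at passage 17, and 20 passed 1.5-fold downward. The other 182 genes of that chromosome had a median of 0.05. Unrelated functions were represented together. Sdha, a subunit of respiratory complex II, stood at 106, 168 and 170.1 CPM (-0.65), and the complex I gene Ndufs6 at 24.2, 33.4 and 33.8 CPM (-0.45). Mrps30, a mitochondrial ribosomal protein, stood at 32.1, 41.7 and 41.5 CPM (-0.36), and Itga1, a collagen-binding integrin chain, at 429, 624 and 681 CPM (-0.54). Of 18 Zfp zinc finger genes in the stretch 17 were below both, with a median of -0.51, such as Zfp367 at 64.3, 105 and 98.5 CPM (-0.61). Respiratory complex I subunits over the whole genome had a median of -0.03 and mitochondrial ribosomal proteins one of -0.01. Ccnb1, Ptch1 and Tgfbi of the lists above lie in this stretch, and Gpr98, the adhesion receptor gene and the one of the 17 past 1.5-fold upward, stood at 22.3, 6.43 and 9.10 CPM (1.20).

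Chromosome 12 was divided into a higher proximal and a lower distal part. The proximal stretch, from 3235791 to 72101527, held 159 genes with a median of 0.21 and 73.6% above both later libraries, and the distal one, from 65132734 to 119238276, held 223 genes with a median of -0.20 and 71.7% below both; they share the windows at their border. Tspan13, a tetraspanin, stood at 39.8, 22 and 21.6 CPM (0.83) in the proximal part, and Tgfb3, a TGF-beta ligand, at 9.39, 16.2 and 21.4 CPM (-0.73) in the distal part. On chromosome 5 the first 219 genes, up to Rasl11b at 74199477, had a median of -0.21 and the remaining 443 a median of 0.005. Chromosome 14 had a lower stretch of 222 genes with a median of -0.17, followed by the last 21 kept genes of the chromosome, of which 20 were above both later libraries and none below both, with a median of 0.38. Mir17hg, the host of the miR-17 to 92 cluster, lies there at 31.6, 21.3 and 13.5 CPM (0.55), as does the splicing regulator Mbnl2 at 378, 255 and 246 CPM (0.56). These last 21 genes are fewer than a window of 50 and did not come from the rule for stretches, so their share is a description. Chromosome 4 was higher from its first kept gene to 129542646, with 404 genes at a median of 0.15 and 70.3% above both, and its remaining 225 genes had a median of 0.10, so the stretch has no sharp border. Chromosome 18 was lower over its length, with 271 genes at a median of -0.14. In all these stretches the median of passage 34 minus passage 33 was within 0.05 of 0.

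**Figure D5:**
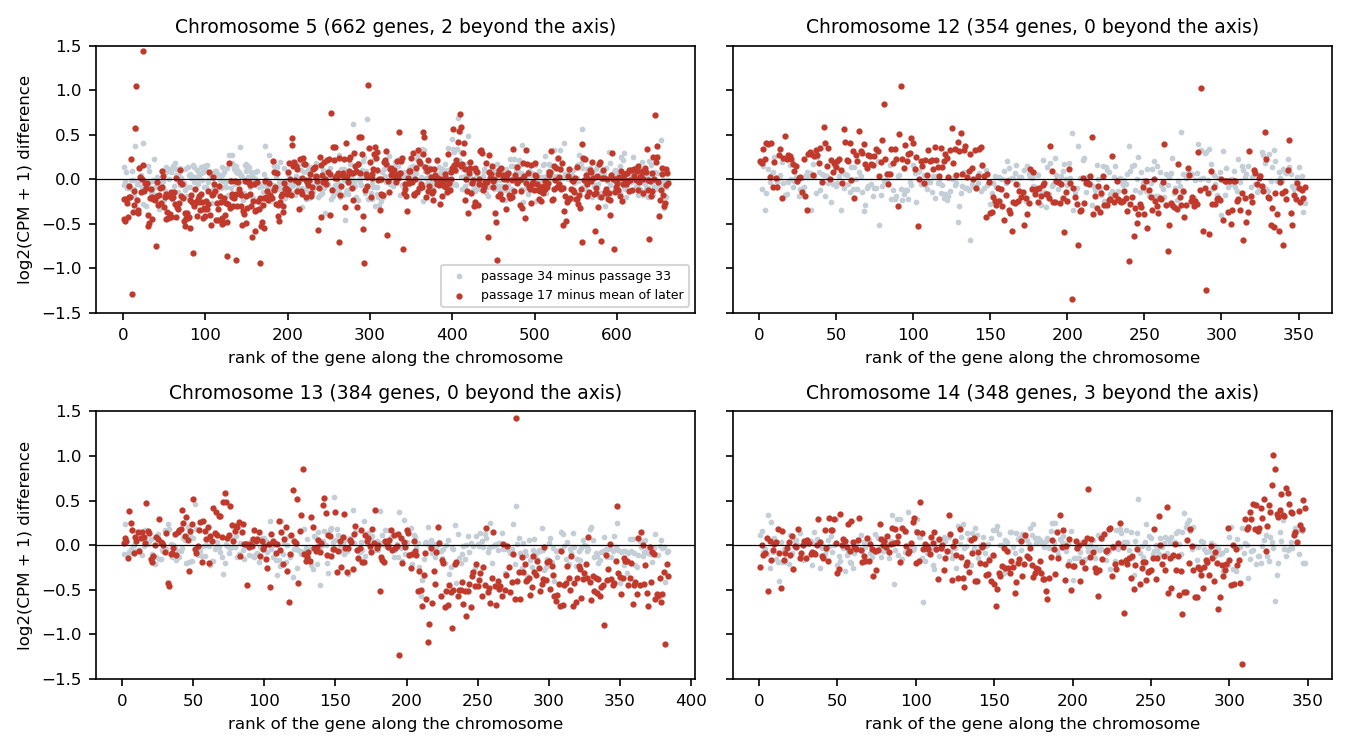
Difference in log2(CPM + 1) of each kept gene against its rank along chromosomes 5, 12, 13 and 14, in red for passage 17 minus the mean of passages 33 and 34 and in grey for passage 34 minus passage 33. The red points are centred away from 0 over parts of each chromosome, at a median of -0.37 on distal chromosome 13 and 0.38 at the end of chromosome 14. The grey points stay centred near 0. The end of chromosome 14 holds 21 genes and did not come from the rule for stretches.

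These stretches held part of the genes past the fold lines. Of the 155 genes at least 1.5-fold lower at passage 17, 49 (31.6%) lay in a lower stretch, where 11.2% of kept genes with a position lie. The stretches were drawn from the same differences, so these shares are a description and nothing is read from them. Of the 131 at least 1.5-fold higher, 8 (6.11%) lay in a higher stretch, where 5.28% of kept genes lie. At 2-fold the numbers were 6 of 38 and 0 of 32. Outside the stretches the amino acid list had a median of 0.36, the interferon list 0.29 and the mitosis list -0.16. These were close to the medians over all their genes, but only 3 of 40, 6 of 47 and 9 of 40 genes were set aside. With most genes left in, those medians could move little, and a part of position in them was not tested. Other lists moved more: the astrocyte median went from -0.45 to -0.68, that of antigen presentation from 0.03 to 0.35, and that of neuronal and synaptic genes from -0.12 to 0.01. These small lists lost 4 of 14, 3 of 20 and 2 of 13 genes. Of the astrocyte genes set aside, 2 lay in higher and 2 in lower stretches. Cadherins and protocadherins moved too: 15 of their 19 kept genes lay in lower stretches, 11 of the 19 were below both later libraries, and the family median of -0.25 was that of its many protocadherins, whereas Cdh6 stood higher at 506, 285 and 259 CPM (0.82).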

How the data were processed

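Per the labels' protocols, total RNA without ribosomal RNA went into stranded, single-read libraries. The authors deposited a normalised signal per gene and library, CPM scaled with TMM factors per the labels. Tools listed in the submitters' processing notes, without roles, are edgeR 3.4.2, HTSeq 0.5.3p9 and TopHat2 (version 2), and the build is mm10; whether strand was used in counting is not stated there. Divided by the worth of 1 read, 100% of values were whole within 0.001 reads.

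Values were compared as log2(CPM + 1), which understates changes of low genes, over genes averaging 5 CPM or more. No test was made, since there is 1 early library. Counting intervals are exact 95% binomial (Clopper-Pearson) intervals on the recovered reads and cover counting error only. The members, 44 gene lists and 46 name patterns were chosen with earlier results of these data known, and patterns were tightened after false matches. Named genes follow a rule: the 15 largest differences in each direction with a higher side of at least 10 CPM, up to 5 members past 2-fold or else 2 members of each list, and fixed markers. It gave 116 genes, some of which are not reported here. Other genes were chosen as list members, by pathway role or after their values were seen. Positions come from RefSeq (GRCm38.p6), with 12102 symbols matched, 807 by synonym. Alternatives varied the pseudocount, minimum, fold line, scaling, reference and the later library left out. The software was matplotlib 3.10.9, scipy 1.17.1, numpy 2.4.6 and pandas 2.3.3 in Python 3.11.15, with edgeR 4.0.16 in R 4.3.3 to recompute TMM factors. The fold step was tested on simulated data, and the window step was not.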

Additional observations from a re-analysis of the deposited data

How the results depend on the processing

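The counts past 2-fold, 32 higher and 38 lower at passage 17, moved most with the expression minimum and the fold line. With a minimum mean of 1 CPM 57 genes were higher, with no minimum 61, and with 20 CPM 11 were higher and 23 lower. At 1.5-fold the counts were 131 and 155, and at 4-fold 4 and 1. Without replicate 1 or 2 of the later libraries, where a gene needs to pass only 1 later value, 42 to 44 genes were higher and 44 to 55 lower. With pseudocounts of 0.5 and 0.1, a minimum of 10 CPM, rescaling to a common sum, centring on the median gene, recomputed TMM factors, the mean of the later libraries as reference, and differences taken relative to 50 neighbouring genes (an alternative chosen after seeing the data), the counts stayed within 1.5 times of 32 and 38. Rescaling shifted the median gene by 0.0028 and recomputed TMM factors by 0.0083. Of 40 list, family, stretch and chromosome medians of at least 0.1 in absolute value, those of 2 families changed sign with the minimum: cadherins and protocadherins to 0.19 at 10 CPM and 0.17 at 20 CPM, and serpins to -0.50 at 20 CPM, as fewer members were kept. The 50 named genes past 2-fold on the mean of the later libraries kept their sign in the alternatives run for them. Those varied the pseudocount, the scaling and the later library left out, or took differences relative to neighbouring genes. Alternatives of minimum, fold line and reference were not run for single genes. These 50 were taken for their large differences, so a change of sign was unlikely from the start. Genes near 5 CPM rest on about 67 reads at passage 17, and their folds are the least precise.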

Other observations

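Differences between the later libraries varied with base content. In 5 equal bins of genes ordered by the GC content of their transcripts (9623 genes with a match), the median of passage 34 minus passage 33 ran from -0.10 in the lowest bin to 0.08 in the highest, whereas the median of passage 17 minus the mean of the later libraries lay between -0.05 and 0.01. In 5 bins of transcript length the latter lay between -0.02 and 0.03.

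Genes of other textbook settings were also among those past 2-fold. Nppb, which encodes the natriuretic peptide BNP, stood at 16.8 CPM at passage 17, 7.33 CPM at passage 33 and 7.08 CPM at passage 34 (difference from the nearer value 1.10), and Npr2, a receptor for C-type natriuretic peptide, stood at 1.94, 10.7 and 6.29 CPM (-1.31). Tnnt2, cardiac troponin T, stood at 31.7, 10.7 and 12.5 CPM (1.28). Slc23a2, the vitamin C transporter, stood at 419, 189.9 and 186 CPM (1.14). Papss2, which makes the sulfate donor of matrix proteoglycans, stood at 48.2, 99.9 and 102 CPM (-1.04). Aim2, a sensor of cytosolic DNA, stood at 4.03, 11.8 and 11.6 CPM (-1.32), against the direction of the interferon list.

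Imprinted genes held 1 member past 2-fold among 13 kept: Plagl1, a zinc finger regulator of the imprinted network, at 16.5, 7.55 and 6.14 CPM (1.04). Regulators of G protein signalling were below both later libraries in all 6 kept members, against 41.6% of all kept genes, with a median of -0.11 and 1 of them past 1.5-fold. That gene was Rgs12 at 25.6, 47.7 and 50.4 CPM (-0.87). Of the 6 kept members, 1 lay in a lower stretch of the genome.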
